A study of Mus musculus with 7 samples.

Results

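The genes described here are 10 genes of the cellular response to low oxygen and of glucose uptake, taken by gene symbol: Hif1a, Egln1, Egln3, Vegfa, Slc2a1, Slc2a3, Pdk1, Bnip3, Ndrg1 and Adm. Their 29 probe sets, out of 45037 on the array, were found in the platform annotation, and 25 of the 29 were bright enough to be tested. They were measured on 7 Affymetrix mouse expression arrays, 5 hybridised with RNA from calreticulin knockout cells and 2 with RNA from wild type cells, both of the mouse embryonic stem cell line D3. Calreticulin, encoded by Calr, is a chaperone that holds calcium and folds glycoproteins in the endoplasmic reticulum, and the study asks which transcripts change without it. The labels give no other treatment, oxygen level or passage, and they do not say how many knockout clones were used. Each RNA sample pooled several cultures, so p-values measure the spread between such pools. In bulk samples, fewer cells of a type and less RNA per cell cannot be told apart.

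Cells sense oxygen through prolyl hydroxylases, among them the products of Egln1 and Egln3, which use oxygen to mark the alpha subunits of hypoxia-inducible factor (HIF) for degradation. When oxygen is low, HIF-1 alpha, encoded by Hif1a, is spared, pairs with Arnt and binds target genes at a short core written ACGTG or GCGTG. Its known targets raise glucose uptake and glycolysis, restrain pyruvate oxidation, thin out mitochondria and signal for blood vessels. HIF-1 alpha is controlled mainly at the protein level, so its messenger RNA does not report its activity, and embryonic stem cells are known for a strongly glycolytic metabolism.

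The 250 bases before the annotated start of 3 genes are printed here because the 3 genes, all known HIF targets, ran differently across the arrays: Slc2a1 and Vegfa were high and Bnip3 was low in knockout arrays 2 and 3. The sequences are from RefSeq on build GRCm38.p6, 5′ to 3′ on the gene's strand, with every match to ACGTG or GCGTG on either strand in capitals. RefSeq windows were at hand for 8 of the 10 genes.
Slc2a1, chr4:119108495-119108744, plus strand: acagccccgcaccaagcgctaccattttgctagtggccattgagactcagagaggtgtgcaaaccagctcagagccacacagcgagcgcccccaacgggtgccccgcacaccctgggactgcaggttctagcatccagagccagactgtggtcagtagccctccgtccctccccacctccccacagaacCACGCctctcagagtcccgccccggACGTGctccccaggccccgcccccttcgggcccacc
Bnip3, chr7:138909507-138909756, minus strand: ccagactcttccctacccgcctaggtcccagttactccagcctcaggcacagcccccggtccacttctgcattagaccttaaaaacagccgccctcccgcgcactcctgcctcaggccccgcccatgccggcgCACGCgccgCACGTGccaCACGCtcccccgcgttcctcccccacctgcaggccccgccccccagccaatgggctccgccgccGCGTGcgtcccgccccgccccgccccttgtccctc
Vegfa, chr17:46032378-46032627, minus strand: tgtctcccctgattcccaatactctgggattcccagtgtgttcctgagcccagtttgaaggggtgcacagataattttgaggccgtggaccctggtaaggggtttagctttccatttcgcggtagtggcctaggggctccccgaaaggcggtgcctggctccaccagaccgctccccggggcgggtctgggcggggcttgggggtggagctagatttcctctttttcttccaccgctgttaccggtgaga

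The Slc2a1 window held 1 ACGTG, whose first base lay 36 bases before the start, and 1 GCGTG on the opposite strand, 61 bases before it. The Bnip3 window held 2 matches to ACGTG and 3 to GCGTG. The ACGTG matches overlap as CACGTG, read on both strands, 108 to 103 bases before the start. The Vegfa window held none, and a window at a second annotated Vegfa start held 1 of each. Of the genes not printed, Hif1a, Egln1, Egln3, Pdk1 and Adm also had matches, while a window at a second Pdk1 start held none. Of 32851 windows of this length in the table, 16.6% held ACGTG, 28.2% held GCGTG and 38.6% held either. Matches are letters only and were not tested against any binding data.

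No probe set of the 10 genes passed the test between calreticulin knockout and wild type cells: of the 25 tested, 0 were called (limma adjusted p under 0.05 over all 27022 tested probe sets), and 0 had an unadjusted p under 0.05, the lowest being 0.0849. Over the array 0.0296% of probe sets were called and 8.42% had an unadjusted p under 0.05. Adjusted p for the members ran from 0.575 to 0.994. Differences, always knockout minus wild type in log2(signal + 20.2), were above 0 at 12 probe sets and below 0 at 13, with a median of -0.01 against 0.07 for all tested probe sets. These results do not show that the levels were equal: the half-width of the 95% interval of the difference ran from 0.44 to 3.16, and the widest belonged to the dim Slc2a3 probe sets and to Vegfa.

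**Figure D1:**
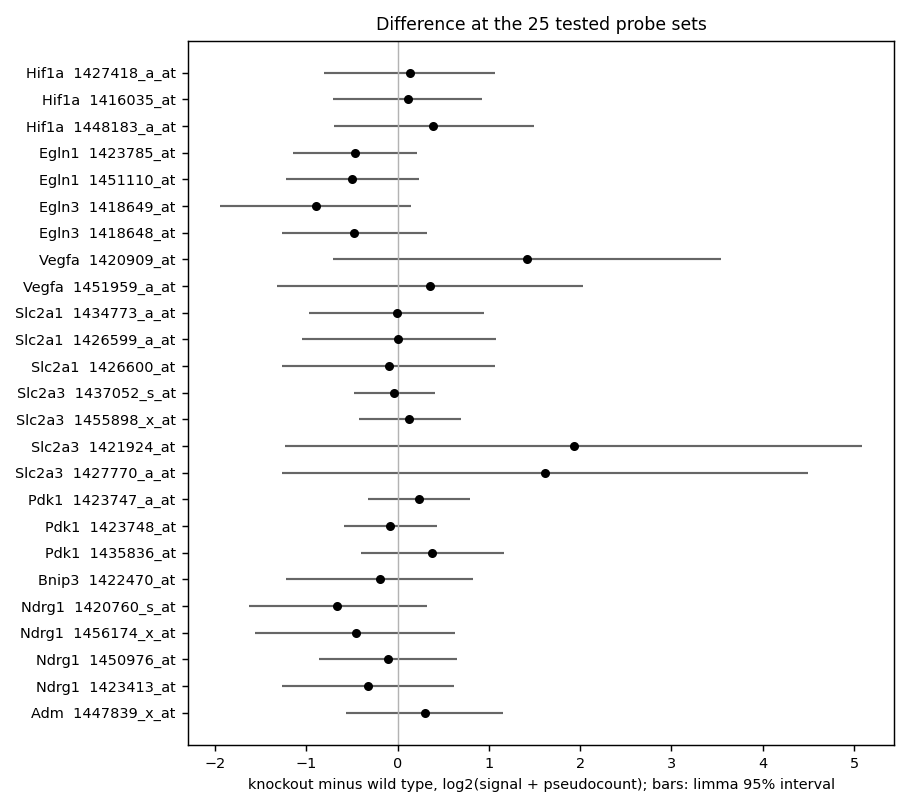
Knockout minus wild type difference in log2(signal + 20.2) at the 25 tested probe sets, points, with limma 95% intervals as bars (5 knockout and 2 wild type arrays). Every interval spans 0, and the widest belong to Vegfa 1420909_at and to Slc2a3 1421924_at and 1427770_a_at.

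Calr checked the labels: its brightest probe set had 912 ± 205 (SD, n = 5) in knockout and 11650 ± 1146 (SD, n = 2) in wild type arrays, a difference of -3.68 (SE 0.30, limma adjusted p = 0.00595). Without wild type array 1 it was -3.58 (adjusted p = 0.253) and without wild type array 2 it was -3.78 (adjusted p = 0.129), so the call needs both wild type arrays. Knockout arrays 2 and 3 correlated at 0.985 with each other and at 0.843 to 0.902 with the rest over the tested probe sets, and the other 5 correlated at 0.92 to 0.972. For Actb, the 3′ over 5′ probe set ratio (log2) was 0.79 and 0.89 in these 2 arrays, 1.53, 1.94 and 1.68 in knockout arrays 1, 4 and 5, and 1.46 and 2.08 in wild type arrays. For Gapdh the 2 arrays stood less apart, with ratios of -0.31 and -0.27, against -0.17 to 1.32 on the other 5. The same ratio of the spike-ins Lys and Dap was also lowest in knockout arrays 2 and 3. It was 0.70 and 1.02 for Lys, below each of the other 5 arrays. For Dap it was 0.18 and 0.44, against 0.88 to 2.32 on the other 5. The Lys spike-in signals (3′ probe set) of knockout arrays 2 and 3 were 15165 and 13155, against 6749 to 8508 on the other 5. The Dap spike-in signals (3′ probe set) lay closer, at 18436 and 18880, against 13000 to 17390. All 10 embryonic stem cell markers were above the signal filter, with summed signals of 80380 to 112543 in knockout and 83531 and 98323 in wild type arrays. The 9 tested fibroblast markers summed to 708, 5381, 5118, 1166 and 696 in knockout arrays 1 to 5, against 1561 and 1314 in wild type arrays, and 8 of the 9 were highest in knockout arrays 2 and 3. None of these markers was at 0, and another marker, Lum, lay below the filter. The part of the control ratios, the spike-in signals and the fibroblast markers in the patterns of the 10 genes was not tested.

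Many of the member probe sets set knockout arrays 2 and 3 apart. At 9 of the 25 tested member probe sets knockout arrays 2 and 3 both lay above the other 5 arrays, and at 8 both lay below. That is 36% and 32% of the members, beside 26.9% and 20.9% of all tested probe sets, and several member probe sets share a gene. A further pattern joined wild type array 1 to knockout arrays 2 and 3: these 3 lay above the other 4 at 4 member probe sets and below at 4, which is 16% each, beside 9.19% and 8.35% over the array. The median span over the 7 arrays was 1.40 log2 units for members and 1.15 for all tested probe sets.

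**Figure D2:**
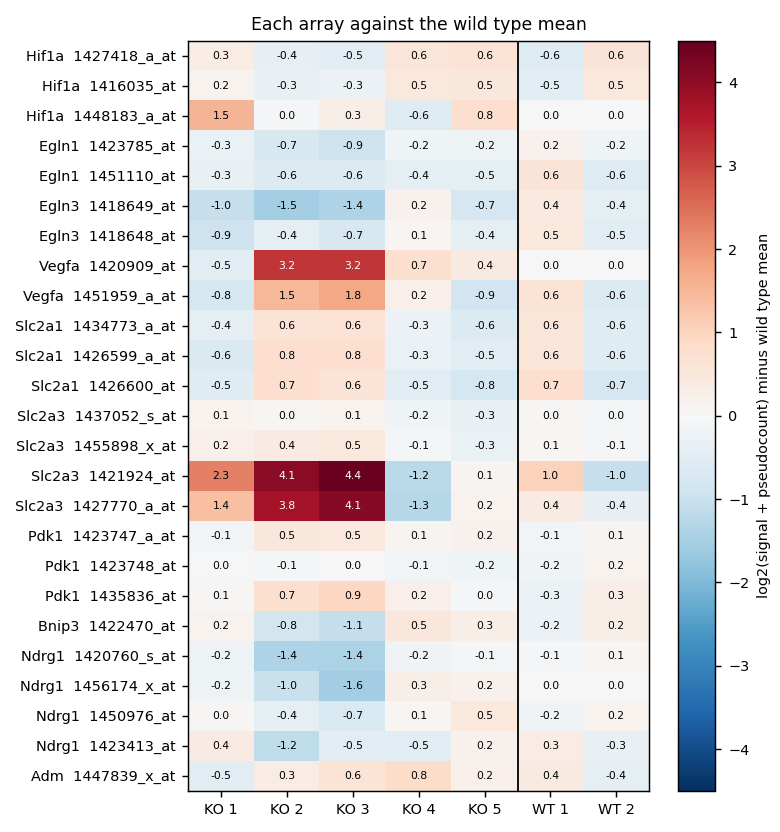
Colour and number give log2(signal + 20.2) on each array minus the wild type mean, for the 25 tested probe sets (rows) in knockout arrays 1 to 5 and wild type arrays 1 and 2 (columns). Vegfa and the dimmer Slc2a3 probe sets stand out in knockout arrays 2 and 3 (1.48 to 4.43), and Ndrg1 1420760_s_at is low there (-1.38 and -1.41).

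Hif1a, on chromosome 12, encodes the oxygen-regulated subunit. Its brightest probe set, 1427418_a_at, had signals of 4055, 2496, 2351, 4769 and 4994 in knockout arrays 1 to 5, against 2162 and 4826 in wild type arrays 1 and 2. The values fell into a low set (knockout 2 and 3, wild type 1) and a high set (the other 4), and the genotypes overlapped. The difference was 0.14 (SE 0.42, 95% interval -0.80 to 1.07, limma adjusted p = 0.909). Probe set 1416035_at was dimmer and had the same 3 arrays lowest, with 601.5 and 631.5 in knockout arrays 2 and 3 and 547.1 in wild type array 1, against 853 to 1085 on the other 4. Its difference was 0.11, and centring the arrays on their medians turned this to -0.004. Probe set 1448183_a_at did not follow this order. It had 424 in knockout array 1, 82.5 in knockout array 4 and 129.5 and 134.7 in wild type arrays. The fourth, 1431981_at, lay below the filter at 13.4 to 86.1.

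Egln3, on chromosome 12, a hydroxylase gene that HIF itself induces, had 254.5, 172.8, 192.7, 616 and 313.7 in knockout arrays 1 to 5 with 1418649_at, against 734.2 and 389.9 in wild type arrays. Knockout array 4 lay between the wild type arrays and the other 4 lay below both. The difference was -0.89 (SE 0.47, interval -1.94 to 0.15, limma adjusted p = 0.575). It was -0.45 without wild type array 1, -1.33 without wild type array 2 and -0.52 without knockout arrays 2 and 3. The dimmer Egln3 probe set gave -0.48, with 132 ± 42.4 in knockout and 197 ± 97.4 in wild type arrays (SD, n = 5 and 2). That value rested on wild type array 1, at 265.5 against 127.8 in wild type array 2: it was -0.004 without wild type array 1 and -0.95 without wild type array 2.

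Egln1, on chromosome 8, encodes the main HIF prolyl hydroxylase of most cells. With 1423785_at it had 536.8, 394.2, 340.6, 582.9 and 562.1 in knockout arrays 1 to 5, against 755.1 and 578.4 in wild type arrays. Only knockout array 4 exceeded a wild type array, by a few units of signal, and the difference was -0.47 (SE 0.30, interval -1.14 to 0.21, adjusted p = 0.596), or -0.28 without wild type array 1. Probe set 1451110_at gave -0.50, but this rested on wild type array 1, whose signal of 695.8 stood apart from 300.6 in wild type array 2 and 291.2 to 356.1 in the 5 knockout arrays. Without wild type array 1 the difference was 0.08, and without wild type array 2 it was -1.07.

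**Figure D3:**
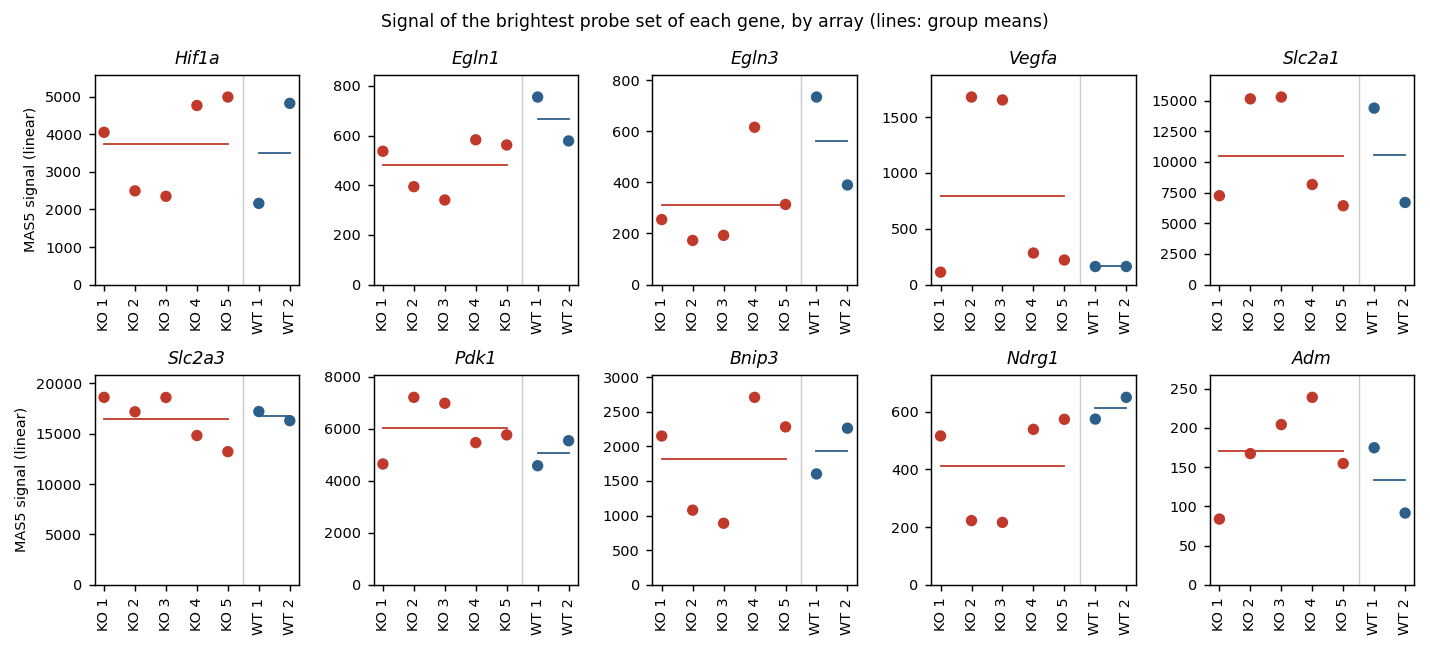
MAS5 signal on a linear scale of the brightest probe set of each gene in knockout (red) and wild type (blue) arrays, 1 point per array, with lines at the group means (n = 5 and 2). Slc2a1 is high and Hif1a low in knockout arrays 2 and 3 and wild type array 1, Vegfa is at 1679 and 1653 in knockout arrays 2 and 3 and at most 282.2 elsewhere, and Bnip3 and Ndrg1 are low in those 2.

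Slc2a1 on chromosome 4 encodes GLUT1, the widespread basal glucose transporter and a HIF target. With 1434773_a_at it had 7242, 15142, 15290, 8158 and 6426 in knockout arrays 1 to 5, against 14386 and 6693 in wild type arrays. Its 3 high arrays (knockout 2 and 3, wild type 1) were those in which Hif1a was low. The genotype difference was -0.01 (SE 0.43, interval -0.97 to 0.95, limma adjusted p = 0.994).

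The other Slc2a1 probe sets repeated the order. With 1426599_a_at knockout arrays 2 and 3 and wild type array 1 had 9106, 9001 and 7896 and the rest 3426 to 4320, a genotype difference of 0.01. With 1426600_at they had 8847, 8141 and 8844 and the rest 3080 to 3736, a difference of -0.09. The sign of these near-zero values changed with the normalization (0.20 and 0.08 for 1434773_a_at and 1426600_at after quantile normalization, -0.10 for 1426599_a_at after centring). In the 3 remaining knockout arrays, without arrays 2 and 3, the differences were -0.44, -0.48 and -0.60, with limma adjusted p of 0.82 to 0.828.

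Slc2a3 on chromosome 6 encodes GLUT3, a high-affinity glucose transporter known from neurons and early embryos. Its 2 bright probe sets were among the most even of all the members. With 1437052_s_at the signals were 18601, 17166, 18589, 14813 and 13212 in knockout arrays 1 to 5, against 17192 and 16288 in wild type arrays. The difference was -0.04 (SE 0.20, interval -0.48 to 0.41, adjusted p = 0.956), the narrowest interval among the 25, and quantile normalization turned it to 0.17. With 1455898_x_at the values were 12648 ± 2744 in knockout and 11336 ± 907 in wild type arrays (SD, n = 5 and 2), a difference of 0.13.

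The dimmer Slc2a3 probe sets varied far more than the bright ones. With 1421924_at the signals were 665.1, 2339, 3008, 40.2 and 131.9 in knockout arrays 1 to 5, against 269.4 and 48.4 in wild type arrays, so the highest array had 74.8 times the lowest. Knockout arrays 2 and 3 lay 4.07 and 4.43 above the wild type mean on the log2 scale, and knockout array 4 lay 1.22 below it. With 1427770_a_at the signals were 190.7, 1097, 1399, 13.6 and 71.6 in knockout arrays 1 to 5, against 86.2 and 43.6 in wild type arrays. The genotype differences were 1.93 (interval -1.23 to 5.09, limma adjusted p = 0.626) and 1.62 (interval -1.26 to 4.49, adjusted p = 0.646), and without knockout arrays 2 and 3 they were 0.39 and 0.08. The first was 2.97 without wild type array 1 and 0.89 without wild type array 2, and the second was 1.0 without knockout array 3. Which part of the transcript each probe set covers is not given in the tables used here. The lower 3′ to 5′ control ratios of knockout arrays 2 and 3 move with this disagreement, and their part in it was not tested.

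**Figure D4:**
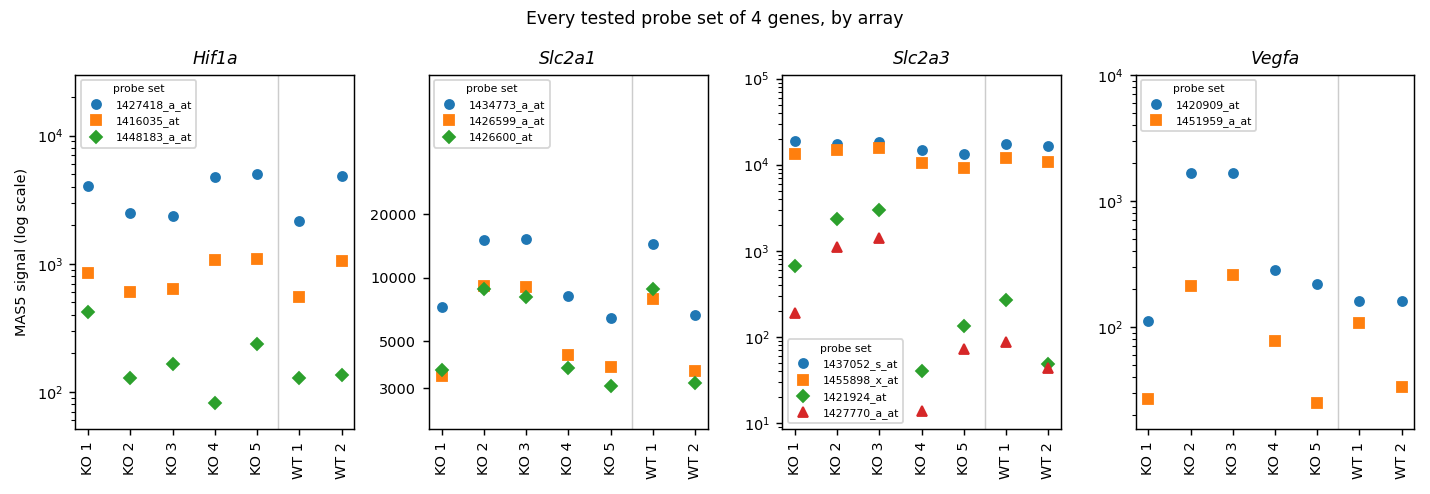
MAS5 signal on a log scale of every tested probe set of Hif1a, Slc2a1, Slc2a3 and Vegfa, by array (5 knockout, then 2 wild type). The Slc2a1 probe sets move together, whereas for Slc2a3 a bright pair stays between 9142 and 18601 and a dim pair spans 13.6 to 3008.

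Vegfa on chromosome 17 encodes the main growth factor for blood vessels. With 1420909_at it had 111.1, 1679, 1653, 282.2 and 219.7 in knockout arrays 1 to 5, against 161.4 and 161.7 in wild type arrays. Knockout arrays 2 and 3 lay 3.22 and 3.20 log2 units above the wild type mean, knockout arrays 4 and 5 lay 0.73 and 0.40 above it, and knockout array 1 lay 0.47 below it. The difference was 1.42 (SE 0.95, interval -0.71 to 3.54, limma adjusted p = 0.601), and 0.22 (interval -0.63 to 1.07, adjusted p = 0.917) without knockout arrays 2 and 3. The dimmer 1451959_a_at was also highest in those 2 arrays, at 209.4 and 256.5, followed by wild type array 1 at 106.8. Its genotype difference was 0.36. The summed fibroblast marker signal was also highest in those 2 arrays (5381 and 5118), and its part in the Vegfa values was not tested.

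Pdk1 on chromosome 2 encodes a kinase that switches off pyruvate dehydrogenase and so keeps pyruvate from the mitochondrial cycle. It was among the steadier genes. With 1423747_a_at it had 4648, 7210, 6982, 5469 and 5766 in knockout arrays 1 to 5, against 4581 and 5543 in wild type arrays, and with 1423748_at it had 3649 ± 235 in knockout and 3885 ± 639 in wild type arrays (SD, n = 5 and 2). The 2 probe sets disagreed over knockout arrays 2 and 3, which were highest with the first and not with the second. Their genotype differences were 0.24 (interval -0.32 to 0.79) and -0.08 (interval -0.59 to 0.43), with limma adjusted p of 0.725 and 0.899, and the second was 0.002 after quantile normalization. A dimmer tested one, 1435836_at, gave 0.38, again with knockout arrays 2 and 3 highest (854.8 and 984.8), and 0.07 without wild type array 1. The untested 1434974_at had 11.5 to 27.4 in knockout and 4.8 and 4.1 in wild type arrays, levels below the filter threshold of 64.8.

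Bnip3 on chromosome 7 encodes a mitochondrial protein that promotes removal of mitochondria by autophagy, and it is a classical HIF target. Its single probe set had 2149, 1079, 889.5, 2708 and 2281 in knockout arrays 1 to 5, against 1602 and 2262 in wild type arrays. Knockout arrays 2 and 3 were lowest and wild type array 1 was next, the same 3 arrays in which Hif1a was low. The difference was -0.19 (SE 0.46, interval -1.22 to 0.83, limma adjusted p = 0.882). Without knockout arrays 2 and 3 it was 0.31 (interval -0.27 to 0.89, adjusted p = 0.841).

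Ndrg1 on chromosome 15 encodes a stress-responsive cytoplasmic protein induced by hypoxia. With 1420760_s_at it had 515.7, 222.5, 216.3, 538.4 and 573.1 in knockout arrays 1 to 5, against 573.9 and 649.2 in wild type arrays. This was the only tested member probe set whose genotypes did not overlap, 1 of 25 or 4%, beside 5.85% of tested probe sets that were lower and 7.8% that were higher in all knockout arrays. The closest pair of knockout and wild type arrays, 573.1 and 573.9, nearly touched. The count moved with 1 array left out. It was 9 of 25 without wild type array 2 and 3 without knockout array 4. Without knockout array 1 or wild type array 1 it was 2. Fewer arrays in a group make overlap less likely for any gene. The matching shares over all tested probe sets were not computed, so these counts are no trait of the members. The difference was -0.66 (SE 0.43, interval -1.63 to 0.32, limma adjusted p = 0.598), and -0.17 without knockout arrays 2 and 3. The other 3 tested Ndrg1 probe sets gave -0.46, -0.10 and -0.32, all with knockout arrays 2 and 3 lowest, and turned to 0.08, 0.20 and 0.02 without those arrays. The untested 1450977_s_at had 21.6 to 111.8 in knockout and 13.3 and 31.6 in wild type arrays.

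Adm on chromosome 7 encodes adrenomedullin, a vasodilator peptide induced by hypoxia. It was the dimmest of the 10. With 1447839_x_at it had 83.8, 167.2, 204.2, 238.9 and 154.6 in knockout arrays 1 to 5, against 174.7 and 91.5 in wild type arrays. The genotypes overlapped, and the difference was 0.30 (SE 0.38, interval -0.56 to 1.16, limma adjusted p = 0.771). It was 0.70 without wild type array 1 and -0.10 without wild type array 2. The other probe set, 1416077_at, was below the filter, at 7.1 to 43.9 in knockout and 65.8 and 7.1 in wild type arrays.

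With 1 probe set per gene, the 10 differences had a median of -0.02, 4 above 0 and 6 below. The other genes of the pathway were counted in lists, each gene by its brightest probe set, over 13120 genes with a median difference of -0.00, of which 0.0152% were called (0 higher and 2 lower). The lists were chosen with earlier results of these data known, and no gene in them was called. Groups did not overlap for 6.41% of all genes with knockout higher and for 7.44% with knockout lower.

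Among the other HIF subunits and sensors, 6 of 7 tested genes had a difference below 0 and the median was -0.37. Knockout arrays 2 and 3 lay below all others in 5 of the 7 genes. The list's median against the wild type mean was -0.55 and -0.48 in those arrays. It was -0.20, -0.15 and -0.28 in knockout arrays 1, 4 and 5, and 0.24 and -0.24 in wild type arrays. The brightest were Egln2, another prolyl hydroxylase gene (-0.21), Epas1, which encodes HIF-2 alpha (-1.58, interval -3.27 to 0.10, limma adjusted p = 0.589), and Arnt, the common partner (0.11). Epas1 had 1008, 183.5, 221.3, 715.9 and 1160 in knockout arrays 1 to 5, against 898.8 and 2774 in wild type arrays, so it was low where Vegfa was high. Vhl, the ubiquitin ligase subunit that recognises hydroxylated HIF, did not overlap between genotypes, with 492.2, 394.9, 340.4, 564 and 541.8 in knockout arrays 1 to 5, against 897.6 and 674 in wild type arrays (-0.74, adjusted p = 0.589).

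Other textbook hypoxia-induced genes lay on both sides of 0, 11 of 21 above 0 and 10 below, with a median of 0.07. The brightest were Tfrc, the transferrin receptor (0.51), Kdm3a, a histone demethylase (-0.08), and Higd1a, a mitochondrial protein (-0.45). Hmox1, which encodes the heme-degrading enzyme heme oxygenase 1, was the only one whose genotypes did not overlap. It had 1528, 712.1, 874.3, 925.4 and 1372 in knockout arrays 1 to 5, against 2451 and 1796 in wild type arrays (95% interval of the log2 difference -1.78 to -0.22, limma adjusted p = 0.589). In 9 of the 21 genes knockout arrays 2 and 3 lay above the other arrays, and in 7 they lay below.

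HIF-regulated genes of glycolysis had differences below 0 for 11 of 12 tested genes, with a median of -0.71, and 0 were called. The list's median against the wild type mean differed by array. It was -0.12, -1.04, -1.18, -0.26 and -0.61 in knockout arrays 1 to 5, and 0.22 and -0.22 in wild type arrays. The brightest were Pgk1, phosphoglycerate kinase (-0.33), Ldha, the lactate dehydrogenase subunit that favours lactate (-0.64), and Aldoa, an aldolase (-0.85). Aldoa had 15138, 5033, 4866, 11218 and 8790 in knockout arrays 1 to 5, against 17373 and 12463 in wild type arrays. Knockout arrays 2 and 3 lay below all others in 8 of the 12 genes. Genotypes did not overlap for Hk2, the inducible hexokinase that traps glucose in the cell, or for Aldoc. Hk2 had 3191, 2748, 2774, 4112 and 3430 in knockout arrays 1 to 5, against 4669 and 4219 in wild type arrays (-0.46, limma adjusted p = 0.589), and Aldoc averaged 379 ± 244 in knockout and 965 ± 120 in wild type arrays (SD, n = 5 and 2). Slc2a1 was high in knockout arrays 2 and 3, where Aldoa was lowest, and also in wild type array 1, where Aldoa was highest. The part of the control ratios and fibroblast markers of knockout arrays 2 and 3 in the glycolysis values was not tested.

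Of the 11 other genes of the sugar transporter families only 5 were bright enough to test, with 3 above 0 and a median of 0.30. Slc2a8, which encodes an intracellular transporter, had the array order of Slc2a1, with 1920, 1812 and 894.6 in knockout arrays 2 and 3 and wild type array 1, against 476.2 to 648.8 on the other 4. Slc2a4, the insulin-regulated transporter of muscle and fat, had a difference of 0.50, and Slc2a5, the fructose transporter, one of -0.06.

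**Figure D5:**
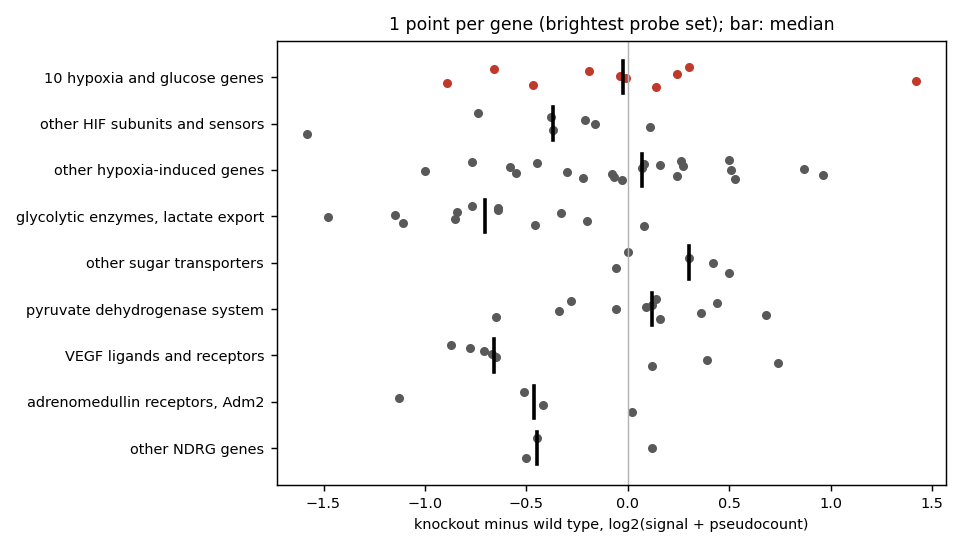
Knockout minus wild type difference in log2(signal + 20.2) for each gene's brightest probe set, 1 point per gene, with a bar at the list's median. The 10 genes (red, top row) have a median of -0.02, against -0.71 for the glycolysis list and 0.30 for the other sugar transporters. By array, the glycolysis list's median was lowest in knockout arrays 2 and 3 (-1.04 and -1.18 against the wild type mean).

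The genes that control pyruvate entry into mitochondria had 7 of 11 tested differences above 0, a median of 0.12 and 0 called. The brightest were Pdhb (0.09) and Pdha1 (-0.06), subunits of pyruvate dehydrogenase, and Dld, a subunit it shares with related enzymes (0.44). Pdk4, a kinase of the Pdk1 family, had 280.5, 262.2, 215.7, 248.5 and 287.8 in knockout arrays 1 to 5, against 114.2 and 202.6 in wild type arrays (0.68, interval 0.08 to 1.29, limma adjusted p = 0.589). Pdp2, a phosphatase that undoes the phosphorylation by these kinases, averaged 274 ± 28.1 in knockout and 352 ± 28.1 in wild type arrays (SD, n = 5 and 2), also without overlap.

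Other ligands and receptors of the Vegfa family had 3 of 8 tested differences above 0 and a median of -0.66. Vegfc, a growth factor for lymphatic vessels, was also highest in knockout arrays 2 and 3 (1639 and 1609, against 385.4 to 990.7 on the other 5), with a difference of 0.74. Vegfb gave 0.12. Nrp2, a coreceptor, gave -0.87 (interval -1.68 to -0.06) and Flt4, the receptor for Vegfc, -0.71 (interval -1.37 to -0.04), both with a limma adjusted p of 0.589. Flt4 did not overlap between genotypes.

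The adrenomedullin list held 4 tested genes with a median of -0.46, of which 3 encode receptor partners and lay below 0. The other, Adm2, which encodes a related peptide and is named here after its values were seen, had a difference of 0.02. Among the receptor partners Ramp3 differed by -0.51, Ramp2 by -1.13 and Ramp1 by -0.42. Ramp2, which makes the calcitonin receptor-like receptor bind adrenomedullin, had 1363 in wild type array 1 alone and 152.4 to 330.4 on every other array. Calcrl, the gene of that receptor, lay below the filter and was not tested. Ramp1 had 69.4 to 115.6 in knockout and 126.9 and 125.5 in wild type arrays, without overlap. Of the relatives of Ndrg1, Ndrg4 gave -0.45, Ndrg2 -0.50 and Ndrg3 0.12, and all 3 were lowest in knockout arrays 2 and 3, as Ndrg1 was.

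The markers of the cells themselves gave 0 calls. Of the 10 stem cell markers 6 were above 0, with a median of 0.06. The differences were -0.07 for Dppa5a, -0.00 for Zfp42, 0.20 for Tdgf1 and 0.67 for Fgf4. Knockout arrays 2 and 3 lay below the other 5 arrays for 4 of the 10 markers and above them for 2. Pou5f1, 1 of the 4, had 4891 and 4687 there, against 8770 to 11726 on the other 5. Fgf4 did not overlap between genotypes, with 5039 to 6215 in knockout and 2366 and 4991 in wild type arrays. Of the 9 fibroblast markers 6 were above 0, with a median of 0.47. Col1a2, a collagen chain, had 1519 and 1443 in knockout arrays 2 and 3, against 159.4 to 374.9 on the other 5, and Fbln2, an extracellular matrix protein, had 770.2 and 828.1 there, against 108.5 to 169.1 on the other 5. Thy1 gave -0.30.

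The genes whose array order was most like that of 3 members were found by Pearson correlation of log2 values over the 7 arrays among 13119 other genes. All genes share the same 7 arrays, and the values are a description with no test. Hif1a ran closest to Btbd10 (0.998), Zc3h15 (0.996) and Zfp180 (0.996). Slc2a1 ran closest to Leprotl1 (0.995), Zfp629 (0.994) and Dhcr7 (0.989), the last an enzyme of cholesterol synthesis. Slc2a3, by its bright probe set, ran closest to Prss55 (0.988), Cox4i1 (0.965) and Ghrhr (0.964). That Slc2a3 probe set spanned only 0.49 log2 units over the 7 arrays. Prss55 and Ghrhr were dim, at 64.3 to 97.7 and 44.7 to 206, against a filter threshold of 64.8.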

How the data were processed

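The authors deposited MAS5 signal intensities, a linear scale, per the submitters' processing notes; the MAS5 version and scaling target are not given in the sources used here. Each array's median lay between 92.6 and 124.9. Probe sets were named through the platform annotation (34958 with 1 symbol, 932 with several, which were left unnamed, and 9211 with none, controls among them), and promoters came from RefSeq.

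From these intensities log2(signal + 20.2) was computed, 20.2 being the 20th percentile of all values. Probe sets with a mean log2 above the 40th percentile (6.41) were tested with limma 3.58.1 in R 4.3.3 (lmFit, eBayes with trend, 5 knockout against 2 wild type arrays), with Benjamini-Hochberg adjustment over all 27022 and a threshold of 0.05. The fit was tested on simulated data with noise independent between arrays. These data lacked the shared deviation of knockout arrays 2 and 3, so the test cannot tell how the fit behaves with it. A fold change on this scale understates that of dim probe sets, and the small number of arrays limits precision. The members and lists were chosen with earlier results of these data known. Named list genes were up to 3 with the highest mean signal per list, plus up to 2 with the largest difference among those without overlap. The alternatives covered normalization, centring, pseudocount, filter, variance model, array weights, a replicate block, knockout arrays 2 and 3 as a batch term or left out, 1 probe set per gene, and each array left out.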

Additional observations from a re-analysis of the deposited data

Results flagged for a closer look

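Of the 29 probe sets of the 10 genes, 1 had an array far from the others of its group. Hif1a 1431981_at had 86.1 in knockout array 1, against 13.4 to 18.3 in the other 4 knockout arrays, and the gap made up 0.882 of the group's range. This probe set lay below the filter. Chance gives a flag under this rule in about 1 of 20 groups.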

How the results depend on the processing

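Over 19 alternatives 452 differences of the member probe sets were recomputed, and 0 passed the threshold. The lowest adjusted p was 0.104, and 397 kept their sign. In all, 10 probe sets kept their sign throughout and 15 turned at least once, mostly those near 0; the cause was not tested. The called probe sets over the array numbered 2 with 1 probe set per gene, 4 with the filter at the 60th percentile, 5 without a filter, 5 with knockout arrays 2 and 3 left out and 15 with the replicate block, against 8 in the reported fit. With 1 array left out they numbered 0 to 7, and leaving out either wild type array gave 0. Calr stayed between -3.78 and -3.52 then, losing its call without wild type array 1 (-3.58, limma adjusted p = 0.253) or 2 (-3.78, 0.129). Member probe sets without overlap numbered 2 without a filter and 1 to 9 with 1 array left out. The shares over all tested probe sets under these settings were not computed. Deviations of same-numbered arrays from their group means correlated at 0.11 and -0.01. With 2 wild type arrays, the deviation of 1 mirrors that of the other, so this check cannot exclude that replicate numbers pair the samples. With the replicate block the sign turned for Adm 1447839_x_at (-0.08), Hif1a 1416035_at (-0.08) and 1427418_a_at (-0.02), Slc2a1 1426600_at (0.10) and 1434773_a_at (0.09) and Slc2a3 1437052_s_at (0.09). Quantile normalization turned Pdk1 1423748_at (0.002), Slc2a1 1426600_at (0.08) and 1434773_a_at (0.20) and Slc2a3 1437052_s_at (0.17), and centring turned Hif1a 1416035_at (-0.004) and Slc2a1 1426599_a_at (-0.10). These scalings moved the median of all tested probe sets to -0.03 and -0.05, against 0.07. Array weights turned Bnip3 (0.05), Ndrg1 1450976_at (0.10), Slc2a1 1426599_a_at (-0.25), Slc2a3 1455898_x_at (-0.01) and Vegfa 1451959_a_at (-0.16). With knockout arrays 2 and 3 as a batch term or left out, Bnip3 (0.31), Ndrg1 1423413_at (0.02), 1450976_at (0.20) and 1456174_x_at (0.08), Slc2a1 1426599_a_at (-0.48) and Slc2a3 1455898_x_at (-0.06) turned, and with the batch term Vegfa 1451959_a_at (-0.48), which fell below the filter when they were left out. With 1 array left out, the signs turned within these ranges: Adm 1447839_x_at -0.10 to 0.70, Bnip3 -0.44 to 0.06, Egln1 1451110_at -1.07 to 0.08, Hif1a 1416035_at -0.34 to 0.57 and 1427418_a_at -0.44 to 0.71, Ndrg1 1423413_at -0.64 to 0.0005 and 1450976_at -0.27 to 0.07, Pdk1 1423748_at -0.25 to 0.08, Slc2a1 1426599_a_at -0.55 to 0.57, 1426600_at -0.83 to 0.65 and 1434773_a_at -0.56 to 0.54, Slc2a3 1437052_s_at -0.08 to 0.04 and Vegfa 1451959_a_at -0.27 to 0.98. Dim probe sets are limited by signal over background: 4 of the 29 lay below the filter.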
